A study of Rattus norvegicus with 9 samples.

Results

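Cdkn1a, the 3 Gadd45 genes and 5 further genes of the p53 and stress response (Mdm2, Ccng1, Ddit4, Plk2 and Plk3) were followed in rat superior mesenteric artery (SMA), the vessel that supplies most of the small intestine. They were chosen by name, for their roles in cell cycle arrest and the p53 response, with earlier results of these data known. They make up 9 of the 37203 gene symbols in the count table. Every one of the 9 passed the filter on low counts, among 15482 genes tested. RNA sequencing covered 9 libraries in 3 groups of 3: Normal, Ischemia 1 h and Ischemia 4 h. All rats were 8-week-old Sprague-Dawley animals. The ischemia rats were anaesthetised with sodium pentobarbital and bled through a catheter in the femoral artery, and the time in the group name was counted from the end of that preparation. Whether normal rats were anaesthetised or catheterised is not given in the sources used here, so anaesthesia, surgery and blood loss cannot be told apart in any comparison with normal. The series design gives 3 rats for each group, so the libraries were taken as 9 separate rats, although the wording of the study's methods also allows 3 individuals sampled in every group.

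The p53 protein is a transcription factor that DNA damage and other stresses stabilise, and its classical target Cdkn1a encodes p21, an inhibitor of cyclin-dependent kinases that halts the cell cycle. Mdm2 encodes the ubiquitin ligase that marks p53 for destruction and is itself a p53 target, which closes a feedback loop. The Gadd45 proteins are small stress sensors that bind Cdkn1a protein, PCNA and the kinase MEKK4, and Cdkn1a, Ddit4 and the Gadd45 genes can also be switched on without p53, by glucocorticoids, low oxygen or growth factor signals.

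Cdkn1a had the largest difference of the 9 genes, 9.36-fold higher after 1 h and 17.6-fold higher after 4 h than in normal artery. Gadd45g was 5.25-fold and 13-fold higher, Ddit4 was 3.66-fold and 4.89-fold higher, and Plk3 was 3.88-fold and 2.1-fold higher. Mdm2 and Ccng1, the other members most closely tied to p53, were within 1.33-fold of normal at both times. Gadd45a, the founding p53 target of its family, was 1.44-fold and 2.58-fold lower. In edgeR's quasi-likelihood test a gene had to reach an adjusted p under 0.05 and a fold change over 1.5 to be called. None of these differences did, so they are given here as measured values with their errors.

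The promoters of 5 genes are shown because they carry the contrasts described below: Cdkn1a, Gadd45g and Ddit4 as the genes with the largest differences, Gadd45a as the family member that was lower, and Plk2 as the gene whose level went with nerve markers. Each is the RefSeq sequence of assembly GRCr8, 250 bases before to 50 bases after the annotated start of the gene, written 5′ to 3′ on the gene's own strand. Capitals mark every match, on either strand, of the motifs that the next paragraph describes. Cdkn1a lies at chr20:7150682-7150981 on the plus strand, Gadd45g at chr17:13530302-13530601 on the minus strand, Ddit4 at chr20:28436988-28437287 on the minus strand, Gadd45a at chr4:97486750-97487049 on the minus strand and Plk2 at chr2:43702286-43702585 on the plus strand.
Cdkn1a: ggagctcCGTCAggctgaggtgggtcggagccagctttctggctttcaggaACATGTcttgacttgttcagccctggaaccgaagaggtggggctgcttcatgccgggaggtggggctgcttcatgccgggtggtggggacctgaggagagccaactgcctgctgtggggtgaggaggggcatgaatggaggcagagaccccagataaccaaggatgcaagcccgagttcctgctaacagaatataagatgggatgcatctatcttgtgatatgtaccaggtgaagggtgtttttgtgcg
Gadd45g: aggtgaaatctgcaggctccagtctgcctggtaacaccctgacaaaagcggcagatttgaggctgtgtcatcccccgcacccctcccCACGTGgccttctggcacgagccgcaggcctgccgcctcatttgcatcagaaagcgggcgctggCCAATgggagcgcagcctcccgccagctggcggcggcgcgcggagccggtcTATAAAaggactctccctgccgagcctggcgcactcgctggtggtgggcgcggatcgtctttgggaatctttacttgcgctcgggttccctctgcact
Ddit4: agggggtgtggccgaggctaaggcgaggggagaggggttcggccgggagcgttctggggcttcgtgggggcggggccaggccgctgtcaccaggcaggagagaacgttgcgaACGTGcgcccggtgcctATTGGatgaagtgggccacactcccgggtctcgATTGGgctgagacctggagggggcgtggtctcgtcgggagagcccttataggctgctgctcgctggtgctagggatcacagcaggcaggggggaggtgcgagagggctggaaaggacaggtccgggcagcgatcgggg
Gadd45a: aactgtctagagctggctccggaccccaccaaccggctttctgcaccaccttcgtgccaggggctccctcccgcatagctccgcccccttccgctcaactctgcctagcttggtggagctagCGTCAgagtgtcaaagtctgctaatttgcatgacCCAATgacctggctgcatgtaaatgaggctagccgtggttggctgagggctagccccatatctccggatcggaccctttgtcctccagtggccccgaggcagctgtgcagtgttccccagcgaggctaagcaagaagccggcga
Plk2: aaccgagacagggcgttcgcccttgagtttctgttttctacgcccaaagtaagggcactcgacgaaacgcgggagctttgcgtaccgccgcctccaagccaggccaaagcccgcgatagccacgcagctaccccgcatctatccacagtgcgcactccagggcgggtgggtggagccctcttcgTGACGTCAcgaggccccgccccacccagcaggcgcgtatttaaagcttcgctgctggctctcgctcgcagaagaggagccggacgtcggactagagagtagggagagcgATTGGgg

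Promoters of all 9 genes were found in the RefSeq table and compared with its 33469 promoters of the same length. ACATGT, a core of one repeat of the p53 response element, was present in the Cdkn1a window alone of the 9, at position -199 from the annotated start used here, and in 5.74% of all promoters. TGACGTCA, the full cyclic AMP response element, was present in the Plk2 window alone, at -66, and in 1.83% of all promoters. The shorter core TGACG, which TGACGTCA contains on both strands, was in 6 of the 9 windows and in 21.2% of all promoters. ACGTG, the core of the hypoxia response element, was in the Ddit4, Gadd45g and Gadd45b windows and in 19.3% of promoters; in Gadd45g and Gadd45b it was part of CACGTG, the E-box, which 6.42% of promoters held. A TATAAA box was found in Gadd45g alone, at -48, and in 14.2% of promoters. CCAAT was in 7 of the 9 windows and in 37.5% of promoters. The glucocorticoid response core ACANNNTGT (6.86% of promoters), the serum response letters CCATATTAG (0.0956%) and the NF-kB letters GGGACTTTC (0.326%) were in 0 of the 9 windows. These matches describe letters in the window and no binding was measured. Only the window at the annotated start used here was searched for each gene, so motifs near any other start of that gene would not be seen.

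Levels are given in CPM, the counts scaled to a common library size (TMM method), always in the order replicate 1, 2 and 3. Each CPM stood for 12.1 to 17.9 counts, so the lowest member value, 4.06 CPM for Plk3, rested on 55 counts. Total counts ran from 13114273 to 15504240 per library, and the biological coefficient of variation was 51.6%. Smooth muscle markers defined the tissue, with Myh11 between 4690 and 23500 CPM in every library, but their summed level varied within groups, from 12200 to 52400 CPM in normal, 14200 to 50500 CPM after 1 h and 26200 to 73100 CPM after 4 h. Sympathetic neuron markers set 3 libraries apart: Dbh, the enzyme that makes noradrenaline, was at 1850 and 1870 CPM in replicates 1 and 3 of 1 h and at 2040 CPM in replicate 3 of 4 h, and between 0 and 226 CPM in the other 6 libraries. The nerve score, the mean log2 CPM of 23 such genes, was 4.42, -0.64 and 3.60 in normal, 7.99, 4.82 and 8.03 after 1 h, and 0.06, 0.36 and 7.95 after 4 h. The whole vessel was sequenced, so fewer cells of a type and less RNA per cell cannot be told apart.

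Cdkn1a, the p21 gene, was at 15.5, 70.4 and 20 CPM in the normal libraries, at 260, 466 and 265 CPM after 1 h, and at 782, 664 and 415 CPM after 4 h. Every ischemia library lay above every normal library, and the lowest of the 4 h libraries lay below the highest of the 1 h libraries. Normal replicate 2 was the highest of its group, at over 3 times the others, and it set most of the normal group's spread. The means were 35.3 ± 30.5 CPM in normal, 330 ± 118 CPM after 1 h and 620 ± 187 CPM after 4 h (SD, n = 3).

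The fitted log2 fold change of Cdkn1a was 3.23 with an SE of 0.63 at 1 h, with a 95% interval of 1.79 to 4.66 and an adjusted p of 0.145 (unadjusted p = 0.000784). At 4 h it was 4.14 with an SE of 0.65 and an interval of 2.64 to 5.63, and the adjusted p was 0.0701 (unadjusted p = 0.000194). By p-value Cdkn1a ranked 84 at 1 h and 41 at 4 h of the 15482 genes. Over both ischemia times against normal the value was 3.68 with an SE of 0.61, or 12.8-fold, and the adjusted p was 0.0509. Between 4 h and 1 h the difference was 0.91 with an interval of -0.42 to 2.24, so no further difference between the times could be told from the spread.

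Without normal replicate 2, the highest normal library, the log2 value over both times was 4.67 (adjusted p = 0.0762), and without normal replicate 1 it was 3.32 (adjusted p = 0.136). Cdkn1a did not pass the edgeR threshold in any fit that left out 1 library, where fewer libraries entered the test. The 3 libraries rich in nerve markers did not hold its highest values, as the plot of levels beside the nerve score shows. They held the lowest values within each ischemia time. These were 260 and 265 CPM beside 466 CPM after 1 h, and 415 CPM beside 664 and 782 CPM after 4 h. Whether Cdkn1a went with the nerve score was not tested. Without these 3 libraries the value over both times was 4.05, in a fit that kept only replicate 2 of 1 h and replicates 1 and 2 of 4 h.

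**Figure D1:**
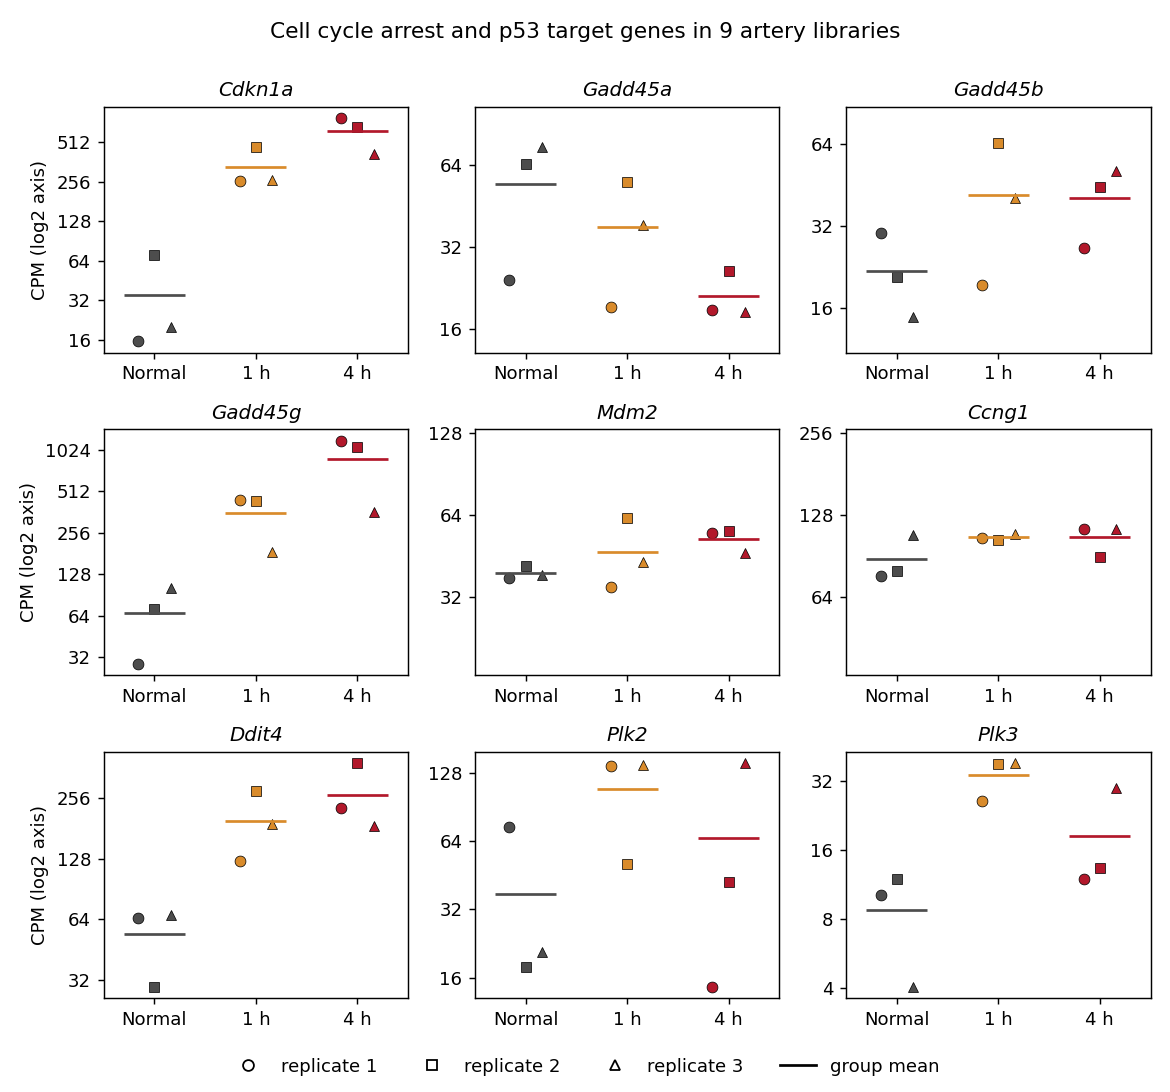
Level of each of the 9 genes in every library, in CPM on a log2 axis, by group. Points are single libraries, with the shape giving the replicate number, and horizontal lines are group means of 3 libraries. Cdkn1a, Gadd45g and Ddit4 lie above all normal libraries at both times, while Ccng1 spans only 76.7 to 114 CPM over all 9 libraries.

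The Gadd45 genes went apart from each other. Gadd45g was at 28.6, 72.3 and 102 CPM in normal, at 440, 438 and 186 CPM after 1 h, and at 1190, 1070 and 364 CPM after 4 h. All 6 ischemia libraries were above all 3 normal libraries, and replicate 3 was the lowest of its group at both times. The nerve score was near 8 in both of those replicates and in replicate 1 of 1 h, where Gadd45g was at 440 CPM. A fit with the score as a covariate is given below, and the score's own term in it was not tested. Summed smooth muscle markers were also lowest of their group in replicate 3 at both times. They were at 12200, 51000 and 52400 CPM in normal, 27400, 50500 and 14200 CPM after 1 h, and 73100, 53100 and 26200 CPM after 4 h. Their part in the level of Gadd45g was not tested. The means were 67.6 ± 36.9 CPM in normal, 355 ± 146 CPM after 1 h and 877 ± 448 CPM after 4 h (SD, n = 3).

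In the edgeR fit the log2 fold change of Gadd45g was 2.39 with an SE of 0.62 at 1 h (adjusted p = 0.21) and 3.70 with an SE of 0.66 at 4 h (adjusted p = 0.0783). Over both times it was 3.04 with an SE of 0.61 and an adjusted p of 0.0754. The difference of 4 h from 1 h was 1.31 with an interval of -0.08 to 2.69 (unadjusted p = 0.061).

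Gadd45a, the member first found as a DNA damage gene under p53, was at 24.1, 64.4 and 74.2 CPM in normal, at 19.3, 55.1 and 38.6 CPM after 1 h, and at 18.7, 26 and 18.4 CPM after 4 h. The 4 h libraries were the tightest group, but normal replicate 1 lay inside their range, so the groups overlapped. Against normal the log2 fold change was -0.53 with an SE of 0.48 at 1 h and -1.36 with an SE of 0.49 at 4 h, where the unadjusted p was 0.022 and the adjusted p was 0.308.

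Gadd45b, the member best known from NF-kB and TGF-beta signalling, was at 30, 20.7 and 14.8 CPM in normal, at 19.4, 64.7 and 40.6 CPM after 1 h, and at 26.5, 44.4 and 51 CPM after 4 h. The lowest library of each ischemia group lay inside the normal range. Its log2 fold change was 0.93 with an SE of 0.46 at 1 h and 0.90 with an SE of 0.46 at 4 h, and over both times it was 0.91 (adjusted p = 0.305). At 1 h it was 0.46 without replicate 2 of that group and 1.27 without replicate 1.

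Within a library, the difference between family members does not depend on how libraries are scaled. The log2 CPM of Gadd45g minus that of Gadd45a was 0.25, 0.17 and 0.45 in normal, 4.50, 2.98 and 2.26 after 1 h, and 5.99, 5.36 and 4.30 after 4 h. Normal overlapped with neither time in this difference, while 1 h and 4 h overlapped. The same difference against Gadd45b was -0.06, 1.80 and 2.77 in normal, 4.49, 2.75 and 2.19 after 1 h, and 5.48, 4.59 and 2.83 after 4 h, with normal and 1 h overlapping. These differences were chosen after the values of the genes were seen and were not tested.

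Mdm2, the p53 ubiquitin ligase, was at 37.4, 41.6 and 38.3 CPM in normal, at 34.7, 62.3 and 43 CPM after 1 h, and at 54.7, 55.7 and 46.2 CPM after 4 h. The 4 h libraries were all above the normal ones, by a small margin, while 1 h replicate 1 was the lowest of all 9. Its log2 fold change was 0.26 with an interval of -0.26 to 0.77 at 1 h and 0.42 with an interval of -0.09 to 0.93 at 4 h (adjusted p = 0.485). Both intervals end below a log2 value of 1. The 1 h value came from replicate 2, and without it the value was -0.01.

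Ccng1, which encodes cyclin G1 and is a steady p53 target in many tissues, was at 76.7, 79.7 and 108 CPM in normal, at 106, 104 and 109 CPM after 1 h, and at 114, 90.2 and 114 CPM after 4 h. The groups overlapped, with normal replicate 3 at the level of the ischemia libraries. Its log2 fold change was 0.27 with an interval of -0.15 to 0.69 at 1 h and the same at 4 h.

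The log2 CPM of Cdkn1a minus that of Mdm2 was -1.27, 0.76 and -0.93 in normal, 2.90, 2.90 and 2.62 after 1 h, and 3.83, 3.58 and 3.17 after 4 h. The 3 groups did not overlap in this difference, which was chosen after the values were seen and was not tested.

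Ddit4 (REDD1), a stress protein that restrains the growth kinase complex mTORC1 through the TSC complex, was at 64.9, 29.7 and 67.2 CPM in normal, at 124, 277 and 190 CPM after 1 h, and at 227, 380 and 185 CPM after 4 h. All ischemia libraries lay above all normal libraries, and replicate 2 was the highest of its group at both times and the lowest of the normal group. The means were 53.9 ± 21 CPM, 197 ± 76.6 CPM and 264 ± 103 CPM (SD, n = 3). Against normal the log2 fold change was 1.87 with an SE of 0.44 at 1 h (adjusted p = 0.195) and 2.29 with an SE of 0.45 at 4 h (adjusted p = 0.0981). Over both times it was 2.08 with an SE of 0.41 and an adjusted p of 0.0753. Between 4 h and 1 h it was 0.42 with an interval of -0.56 to 1.40.

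Plk3, a stress-induced kinase of the polo family, was at 10.2, 12 and 4.06 CPM in normal, at 26.2, 37.8 and 38.2 CPM after 1 h, and at 12, 13.3 and 29.8 CPM after 4 h. The 1 h libraries were all at over 2 times the highest normal library. At 4 h replicates 1 and 2 were close to the normal level, the lowest being equal to the highest normal library at this rounding, and only replicate 3, one of the nerve-rich libraries, was as high as at 1 h. The fitted log2 fold change was 1.96 with an SE of 0.49 at 1 h (adjusted p = 0.21) and 1.07 with an SE of 0.48 at 4 h (adjusted p = 0.408). Without replicate 3 of 4 h the 4 h value was 0.53 with an SE of 0.42. The difference of 4 h from 1 h was -0.89 with an interval of -1.97 to 0.19, so a lower level at 4 h could not be told from the spread.

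Plk2, another polo family kinase that is a p53 target and is also abundant in active neurons, was at 73.7, 17.9 and 20.8 CPM in normal, at 137, 50.6 and 138 CPM after 1 h, and at 14.6, 42.2 and 141 CPM after 4 h. The 3 highest values, 137 to 141 CPM, were those of the 3 nerve-rich libraries, and normal replicate 1 came next. The groups overlapped at both times. The fitted log2 fold change was 1.53 with an SE of 0.87 at 1 h and 0.81 with an SE of 0.86 at 4 h. Without replicate 3 of 4 h the 4 h value was -0.40. Without all 3 nerve-rich libraries the value over both times was 0.06 in place of 1.17, with only replicate 2 left at 1 h.

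**Figure D2:**
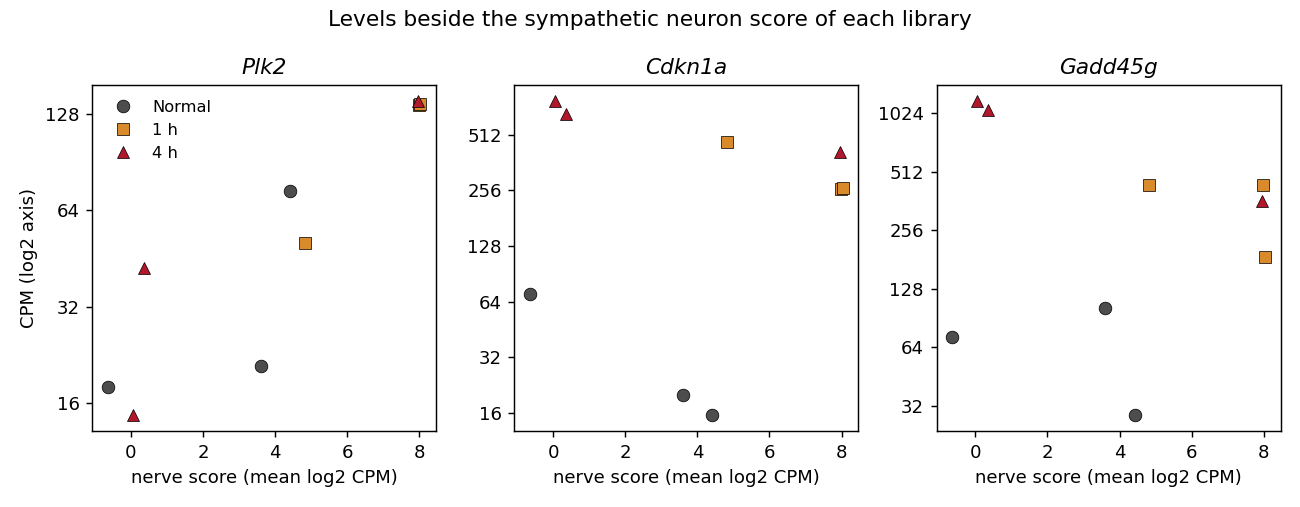
Level of Plk2, Cdkn1a and Gadd45g in CPM (log2 axis) against the nerve score of each of the 9 libraries, the mean log2 CPM of 23 sympathetic neuron genes; symbols give the group. Plk2 is highest, at 137 to 141 CPM, in the 3 libraries with a score near 8, whereas Cdkn1a and Gadd45g are highest in 4 h libraries with scores of 0.06 and 0.36.

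Against this spread, 0 of the 9 genes passed the edgeR threshold at 1 h, where 0.0581% of all genes did. The count was also 0 of 9 at 4 h, with 0.0904% of all genes called, 0 of 9 between 4 h and 1 h, with 0% of all genes called, and 0 of 9 over the 3 groups together, with 0.0388%. Over both times against normal, 0 of 9 passed and 0.426% of all genes did. At an unadjusted p under 0.05 there were 4 of 9 genes at 1 h (Cdkn1a, Gadd45g, Ddit4 and Plk3, all higher) where 16.7% of all genes had such a p, and 4 of 9 at 4 h (Cdkn1a, Gadd45g and Ddit4 higher, Gadd45a lower) where 12.4% did. Over both times 5 of 9 had such a p, beside 17.1% of all genes, and between 4 h and 1 h 0 of 9 did, beside 2.58%.

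All 3 libraries were above all 3 normal ones in 4 of 9 genes at 1 h, where this held for 12.8% of all genes tested. At 4 h it held for 5 of 9 genes (Cdkn1a, Gadd45g, Ddit4, Plk3 and Mdm2) and for 7.93% of all genes. All 6 ischemia libraries were above all normal ones in 4 of 9 genes and in 3.99% of all genes. Plk3 entered this count and the one at 4 h by a margin below rounding, with 4 h replicate 1 and normal replicate 2 each at 12 CPM. The members' shares were above these backgrounds, but they were chosen with earlier results of these data known, and both times were set against the same 3 normal libraries.

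**Figure D3:**
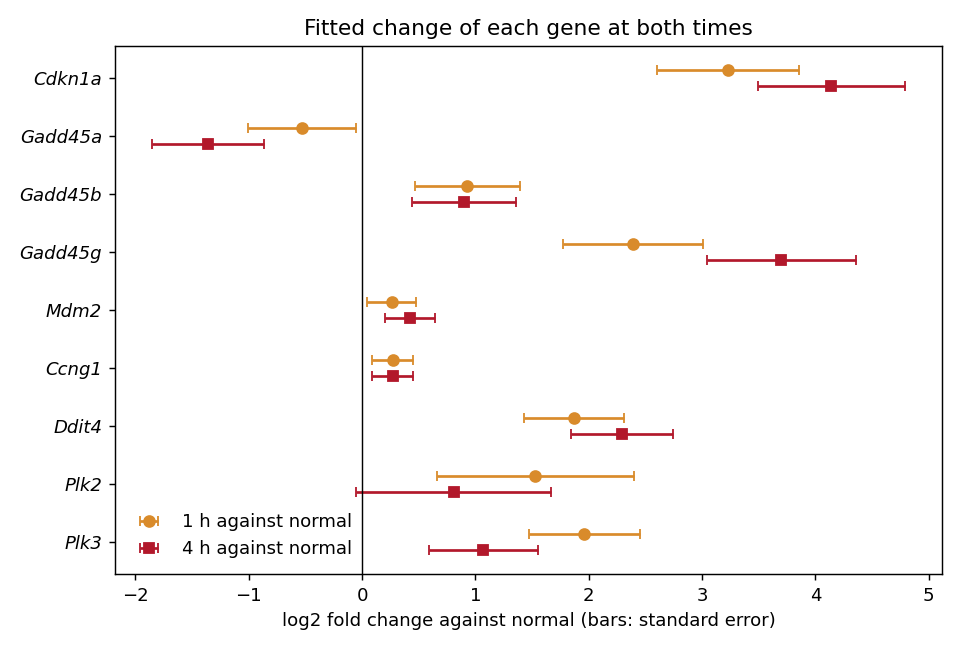
Fitted log2 fold change of each gene against normal at 1 h (circles) and 4 h (squares), with bars of 1 SE from the edgeR fit. Cdkn1a and Gadd45g lie furthest to the right at 4 h (4.14 and 3.70), Mdm2 and Ccng1 lie near 0, and Gadd45a is the gene with negative values at both times.

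The calls depended on the test. DESeq2's Wald test, run on the same counts, called 4 of the 9 genes at 1 h (Cdkn1a, Gadd45g, Ddit4 and Plk3) where it called 4.8% of all genes, and 3 of 9 at 4 h (without Plk3) where it called 3.98%. Over both times it called the first 4 again, with 6.73% of all genes, and its likelihood ratio test over the 3 groups called 4, with 4.39%. The DESeq2 log2 fold changes were close to those of edgeR (Cdkn1a 3.70 over both times, adjusted p = 1.97e-10), and Ccng1, Mdm2, Gadd45a, Gadd45b and Plk2 were not called there either. With libraries scaled by their size alone, edgeR called Cdkn1a over both times (3.58, adjusted p = 0.0479), as it did 0.459% of all genes.

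With the nerve score as a covariate in the edgeR fit, Cdkn1a was called at both times, at 4.30 with an SE of 0.49 at 1 h (adjusted p = 0.0386) and 4.43 with an SE of 0.42 at 4 h (adjusted p = 0.0108). It was the only one of the 9 genes called at 1 h, where 0.11% of all genes were called. Gadd45g was called at 4 h too, at 3.58 with an SE of 0.52 (adjusted p = 0.0373), which made 2 of 9 genes beside 0.749% of all genes. Over both times the same pair was called, beside 0.872% of all genes, and over the 3 groups Cdkn1a was called, beside 0.174%. Plk2 in this fit was at 0.12 with an SE of 0.56 at 1 h and at 0.27 with an SE of 0.43 over both times, where the fit without the score gave 1.17. Ddit4 (2.13), Plk3 (1.29), Gadd45b, Mdm2 and Ccng1 were not called in this fit. The score was higher in the 1 h group than in any normal library, so the covariate and the 1 h contrast are not independent.

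**Figure D4:**
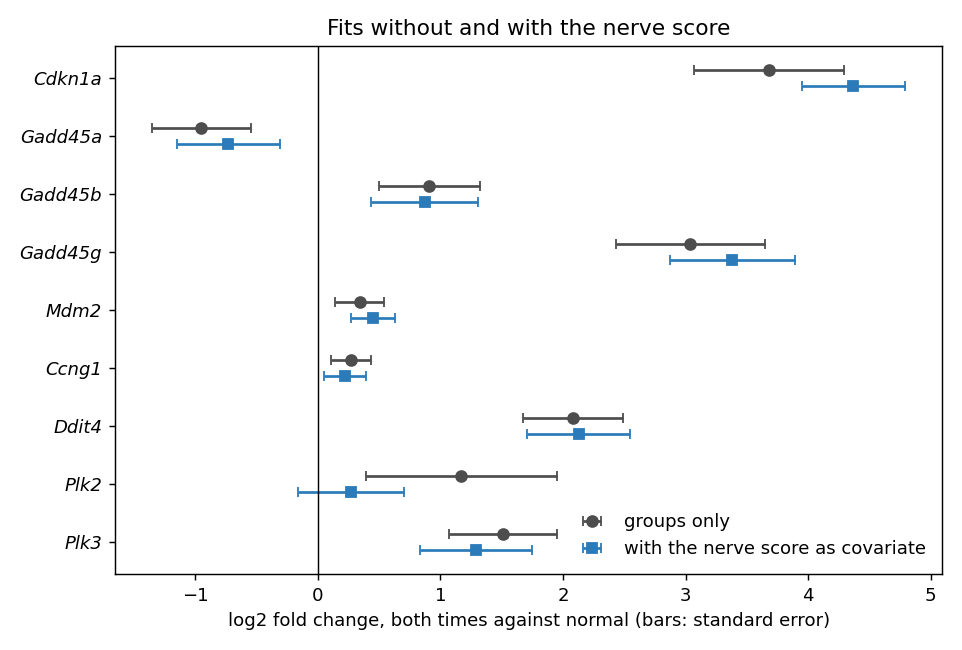
Log2 fold change of each gene over both ischemia times against normal, fitted with the groups alone (circles) and with the nerve score as a covariate (squares), with bars of 1 SE. Cdkn1a goes from 3.68 to 4.37 and Plk2 from 1.17 to 0.27, and the other genes stay within 1 SE of the first fit.

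The genes whose levels over the 9 libraries were most like that of Cdkn1a, among 10436 tested genes averaging at least 5 CPM, were Errfi1 (Pearson r = 0.985), Csrnp1 (0.978), Adamts1 (0.978), Zfand2a (0.97) and Nfil3 (0.968). Errfi1, which encodes the feedback inhibitor of the epidermal growth factor receptor, was at 80.2 to 281 CPM in normal, 859 to 2340 CPM after 1 h and 1320 to 3740 CPM after 4 h. Nfil3, a transcriptional repressor, was at 9.07 to 14.4 CPM in normal, 69 to 89.8 CPM after 1 h and 96.2 to 146 CPM after 4 h. Among the 9 genes themselves the correlation with Cdkn1a was 0.921 for Gadd45g, 0.816 for Ddit4, 0.697 for Mdm2, 0.636 for Plk3, 0.58 for Gadd45b, 0.536 for Ccng1, 0.145 for Plk2 and -0.442 for Gadd45a. These values are descriptions over 9 libraries that fall into 3 groups, and a shared difference between groups is enough to give a high r.

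Other p53 target genes were taken from a list of 30, of which 29 were in the table and 28 were tested. By edgeR 0 of the 28 were called at 1 h, at 4 h or over both times, and the median log2 fold change over both times was -0.08, beside 0.00 for all genes. DESeq2 called 2 at 1 h, 2 at 4 h and 6 over both times, beside 4.8%, 3.98% and 6.73% of all genes. An unadjusted p under 0.05 in edgeR was found for 8 of the 28 over both times, 2 higher and 6 lower, beside 17.1% of all genes (1113 higher and 1542 lower of 15482). The 2 higher ones were Btg2, an antiproliferative gene, and Pmaip1, the cell death gene for NOXA, which was under the level set for naming and is named after its values were seen. Pmaip1 was at 0.292 to 1.51 CPM in normal and 1.47 to 5.28 CPM in ischemia, and DESeq2 called it over both times (adjusted p = 0.031).

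Btg2 was at 69.3, 143 and 183 CPM in normal, at 374, 772 and 354 CPM after 1 h, and at 516, 603 and 324 CPM after 4 h, with no overlap of normal with ischemia. Its log2 fold change over both times was 1.90 with an SE of 0.43 in edgeR (adjusted p = 0.0944), and 2.15 with the nerve score as a covariate (adjusted p = 0.0473). DESeq2 called Btg2 at 1 h (adjusted p = 0.00398), at 4 h (adjusted p = 0.00539) and over both times (adjusted p = 0.000335). The lower genes named by the rule were Xpc (-0.68), which recognises damaged DNA, Ddb2 (-1.09), which recognises ultraviolet damage, Polk (-0.86) and Ccng2 (-1.17). Polk encodes a polymerase that copies past lesions, and Ccng2 is the cyclin G2 gene. Ccng2, a relative of Ccng1, was at 53.2, 25.4 and 27.9 CPM in normal, at 14.7, 16.8 and 22.4 CPM after 1 h and at 9.34, 15.6 and 16.4 CPM after 4 h, all ischemia libraries below all normal ones. None of these 4 was called by edgeR, while DESeq2 called all 4 over both times, with adjusted p-values from 0.00279 (Xpc) to 0.0442 (Ddb2). The remaining lower genes at an unadjusted p under 0.05 were Eda2r (-1.53, at or under 1.77 CPM in every library) and Apaf1 (-0.54). The rule did not name them, they are given after their values were seen, and edgeR did not call them.

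Of 17 genes in the list of p53 regulation 15 were tested, with a median over both times of -0.23. An unadjusted p under 0.05 was found for 1 of the 15, a lower gene, beside 17.1% of all genes. This was Atm, the kinase that signals DNA breaks, at -0.69 with an SE of 0.18 (adjusted p = 0.125). DESeq2 called Atm at 4 h and over both times (adjusted p = 0.0226), where it called 3.98% and 6.73% of all genes.

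A list of 16 genes held other cell cycle inhibitors and relatives of the 9 genes, Plk1, Plk4 and Plk5 among them. Of these 13 were tested, the median over both times was -0.45, and 1 higher and 5 lower genes reached an unadjusted p under 0.05, beside the 17.1% of all genes. By edgeR 0 of the 13 were called, where it called 0.426% of all genes over both times. DESeq2 called Rbl2 and Ccng2 over both times, as it did 6.73% of all genes. The higher one was Btg3 (0.41). The lower ones were Rbl2, a retinoblastoma relative (-0.91, adjusted p = 0.0793), Ccng2, Btg1 (-0.71), Cdkn1b, the p27 gene next to Cdkn1a in its family (-0.49), and Rb1 (-0.34), which the rule did not name and which is given after its value was seen. Rbl2 was at 84.9 to 92.6 CPM in normal and 36.3 to 59 CPM in ischemia.

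In a list of 22 cell cycle drivers, 21 were tested with a median over both times of -0.11. Of the 21, 2 higher and 4 lower genes reached an unadjusted p under 0.05, beside 17.1% of all genes. E2f2, a transcription factor that opens the DNA synthesis phase, was the only list gene that edgeR with the groups alone called, and it did so over both times. It was at 8.23, 11 and 14.4 CPM in normal, at 3.48, 2.87 and 2.76 CPM after 1 h and at 3.22, 2.4 and 2.05 CPM after 4 h, with every ischemia library below every normal one. E2f2 fell by 2.01 on the log2 scale with an SE of 0.25 (adjusted p = 0.0267). That call was lost in each fit without 1 library, where the value ran from -2.19 to -1.78 and the adjusted p from 0.0559 to 0.155, and in the fit with a replicate block (adjusted p = 0.098). DESeq2 called E2f2 at 1 h (adjusted p = 3.95e-05), at 4 h (adjusted p = 1.78e-06) and over both times (adjusted p = 2.98e-08). At 4 h it was also called with the nerve score (adjusted p = 0.0375) and with library size alone (adjusted p = 0.0424). Cdk4 (-0.59), Cdk2 (-0.84) and Mcm2 (-0.56) were the other lower genes, and Pcna (0.58) and E2f3 (1.38, at 0.511 to 6.27 CPM and named after its values were seen) the higher ones. The 3 highest E2f3 values, 4.36 to 6.27 CPM, were those of the 3 nerve-rich libraries. With the nerve score as a covariate E2f3 was at 0.83 with an SE of 0.35 over both times, and Pcna was at 0.70.

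The signalling partners of the Gadd45 and Ddit4 proteins made up a pair of lists. Of 12 kinases downstream of Gadd45, 10 were tested, with a median over both times of -0.06. Among these 10, 1 higher and 2 lower genes reached an unadjusted p under 0.05, beside 17.1% of all genes. Map2k4, which activates the stress kinases JNK and p38, was at 14.5 to 15.9 CPM in normal and 22.3 to 32.5 CPM in ischemia. Its log2 fold change was 0.87 with an SE of 0.18 (adjusted p = 0.0794). DESeq2 called Map2k4 over both times (adjusted p = 0.000447), as it did 6.73% of all genes. Map2k7 (-0.44) and Mapk14, the p38 alpha gene (-0.48), were lower at an unadjusted p under 0.05. All 12 TSC and mTORC1 genes were tested, with a median of -0.27. An unadjusted p under 0.05 was found for 2 of the 12, beside 17.1% of all genes. These were lower: Eif4ebp1, a repressor of translation under mTORC1 (-0.60), and Tsc1 (-0.41).

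**Figure D5:**
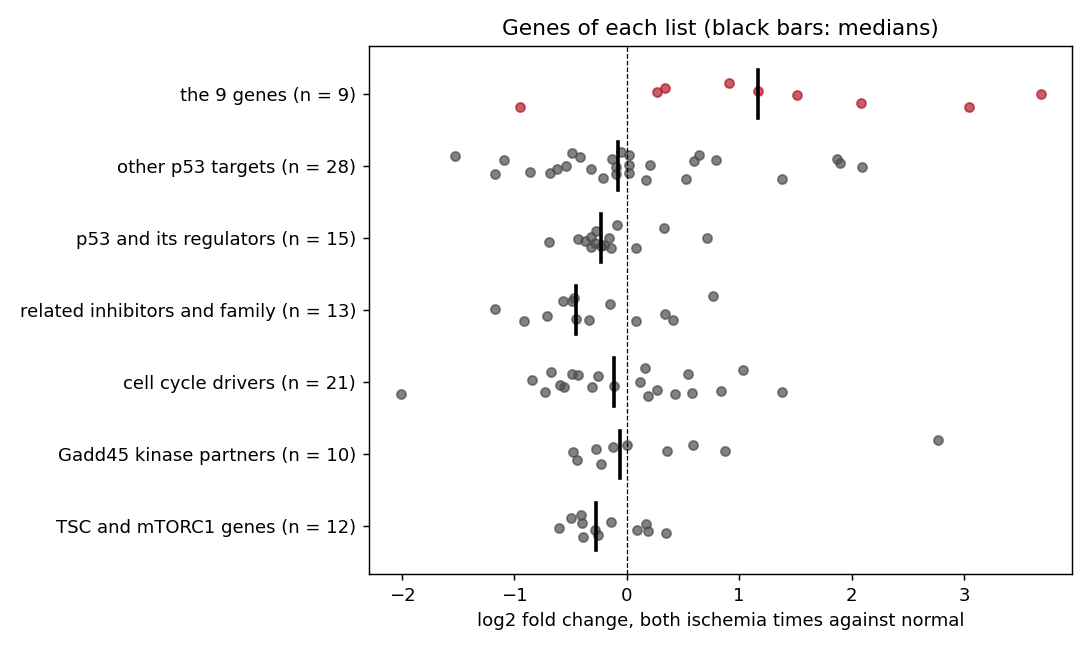
Log2 fold change over both ischemia times against normal for the tested genes of each list, with black bars at the medians and a dashed line at 0. The 9 genes have a median of 1.17, and the medians of the 6 other lists lie between -0.45 and -0.06.

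Markers of cells other than smooth muscle also varied between libraries. Summed over each list, endothelial markers ran from 929 to 1690 CPM in normal, 724 to 1200 CPM after 1 h and 763 to 1030 CPM after 4 h. Schwann cell markers ran from 256 to 4340 CPM in normal, 1210 to 2240 CPM after 1 h and 503 to 2090 CPM after 4 h. Adipocyte markers ran from 402 to 2530 CPM in normal, 1020 to 2460 CPM after 1 h and 465 to 1200 CPM after 4 h. These ranges overlapped between all groups. Every one of the 9 endothelial markers tested was lower over both times, with a median log2 fold change of -0.54. In edgeR 3 of the 9 had an unadjusted p under 0.05, beside 17.1% of all genes, and 0 were called. Neutrophil markers were at 6.72 to 10.6 CPM in normal, 14 to 81 CPM after 1 h and 2.89 to 50 CPM after 4 h, so that every 1 h library lay above every normal one. Most of that sum was Lcn2, at 5.91 to 9.91 CPM in normal, 12 to 77.8 CPM after 1 h and 2.81 to 47.7 CPM after 4 h. S100a9, the other neutrophil marker tested, was at or under 0.995 CPM in every library. Macrophage markers were at 117 to 223 CPM in normal, 138 to 303 CPM after 1 h and 153 to 249 CPM after 4 h. None of the 10 lymphocyte markers passed the filter on low counts. Normal replicate 1, the library with the lowest Cdkn1a and Gadd45g, also had the least smooth muscle and the most Schwann cell signal of the normal group; the part of these markers in the members' values was not tested.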

How the data were processed

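RNA was extracted with Trizol, and libraries followed an Illumina protocol per the labels. The authors deposited raw read counts per gene symbol, 1 column for each of 9 libraries, and every column matched a sample title. The submitters' processing notes name HISAT2. The counting program, genome build, annotation and strand setting are not given in the sources used here, nor is how reads shared by related genes were counted. The study's methods describe microarrays for these samples but also mention paired-end analysis, and its results name both gene chips and transcriptome sequencing. The table holds whole-number counts and was analysed as such. Of 37203 symbols, 13156 had no count, and 15482 passed filterByExpr.

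Totals of 13114273 to 15504240 counts per library leave the spread between libraries, not counting, as the main error. Libraries were checked for duplicates, and no pair came closer than a chi-square of 29.9 per degree of freedom. Counts were tested in R 4.3.3 with edgeR 4.0.16 (TMM scaling, factors 0.814 to 1.22, quasi-likelihood F-test, all 9 libraries in 1 fit, group as the only term) with Benjamini-Hochberg adjustment across the 15482 genes. Calls needed a fold change above 1.5 and an adjusted p below 0.05. Standard errors are the size of the log2 change divided by the square root of F, and 95% intervals use the t distribution with the test's degrees of freedom. Both-times values are the mean of 1 h and 4 h minus normal. Alternatives were DESeq2 1.42.0 and its size factors, library size alone, no filter, a replicate block, the nerve score as a covariate, only the 2 groups compared, and leaving out each library. The fit without the 3 nerve-rich libraries was chosen after seeing the data. It kept replicate 2 alone at 1 h and replicates 1 and 2 at 4 h, so its 1 h values have no replicate. Steps were tested on simulated data. Figures were drawn with matplotlib 3.10.9.

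The members and lists were chosen with earlier results of these data known. All 9 members are named. Of each list, genes called in any contrast are named, and up to 4 higher and 4 lower genes of smallest unadjusted p under 0.05 over both times, averaging at least 5 CPM. For likeness to Cdkn1a, the 5 genes of highest Pearson r of log2 CPM (prior count 2) are named, passing over uncharacterised identifiers. Promoters and names come from RefSeq, assembly GRCr8. Values of some list genes are not reported here.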

Additional observations from a re-analysis of the deposited data

How the results depend on the processing

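Against 0 of the 9 genes called by edgeR in each comparison, DESeq2 called 4 at 1 h, 3 at 4 h, 4 over both times and 4 over the 3 groups. The nerve score as a covariate gave 1 at 1 h, 2 at 4 h, 2 over both times and 1 over the 3 groups, and library size alone gave 1 over both times. Leaving out each library in turn gave 0 called members in every comparison. Of the fitted values of the 9 genes under the alternatives, 429 kept their direction and side of the threshold, 17 moved past it and 4 changed sign. Without the 3 nerve-rich libraries Gadd45a at 1 h was 0.02, with replicate 2 as the only 1 h library. In that fit Plk2 at 4 h was -0.35, from replicates 1 and 2 of 4 h. Mdm2 at 1 h was -0.01 without replicate 2 of 1 h, and Plk2 at 4 h was -0.40 without replicate 3 of 4 h. The cause was not tested. Leaving out 1 library gave Mdm2 at 1 h values of -0.01 to 0.43 and Plk2 at 4 h values of -0.40 to 1.77. Over both times, leaving out 1 library moved the log2 value of Cdkn1a from 3.32 to 4.67, of Gadd45g from 2.68 to 3.47, of Ddit4 from 1.79 to 2.27 and of Plk3 from 1.17 to 1.82.

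Counts over all genes moved more. DESeq2 called 702 genes at 1 h, 606 at 4 h, 1025 over both times and 669 over the 3 groups, against 9, 14, 66 and 6 in edgeR. The nerve score gave 17, 116, 135 and 27, only the 2 groups compared gave 4 at 1 h and 4 at 4 h, no filter gave 11 over the 3 groups, and the fit without the 3 nerve-rich libraries gave 12 over both times and 0 over the 3 groups. Leaving out 1 library gave 0 to 11 at 1 h, 1 to 14 at 4 h, 1 to 22 over both times and 0 to 7 over the 3 groups. Of the genes called over both times 33.3% were higher, against 25.4% with library size alone, 43.2% with no filter, 43.9% with DESeq2, 48.9% with the nerve score, 68.4% with a replicate block, 59.1% to 100% with 1 library left out and 100% without the 3 nerve-rich libraries. Library size alone also put the median of all genes at -0.15 at 4 h, and Gadd45a, Mdm2 and Ccng1 kept their direction there.

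Libraries of different groups share replicate numbers, so a replicate block was fitted. It called 0 of the 9 genes in each comparison, and 7 genes at 1 h, 7 at 4 h, 19 over both times and 0 over the 3 groups. Cdkn1a over both times was 3.92 with an SE of 0.48 in that fit (adjusted p = 0.0746). Same-numbered libraries correlated from -0.651 to 0.66 in their deviations from group means over 9 pairs, and 4 of 9 libraries matched best with their own number, so the numbers were not taken to pair the samples.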
